A study of Mus musculus with 30 samples.

Results

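The carbonic anhydrases Car2, Car3, Car4, Car8, Car12 and Car14 were examined in 5 tissues of newborn mice with and without the nuclear receptor ERRγ. Members were all probe sets to which the array's annotation gives 1 of these 6 symbols, which gave 9 probe sets of the 22626 used and 6 of the 12393 genes they stand for. Car3, Car4 and Car8 had 2 probe sets each, and Car2, Car12 and Car14 had 1. RNA of stomach, salivary tissue, kidney, liver and brain was hybridized to Affymetrix MOE430A arrays, which read each transcript with a set of short probes near its 3′ end. Each tissue had 3 arrays labelled wildtype and 3 labelled ERRγ null, 30 in all. Both genotypes were neonatal (the series design says perinatal), of mixed SV129/C57BL/6 background, of unknown sex per the labels and fed standard chow. Heart, which the series title also names, was not analysed here.

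Carbonic anhydrases convert CO2 and water into bicarbonate and a proton, and back. Cells that move acid or bicarbonate across a membrane hold them beside proton pumps and bicarbonate carriers, as the acid-secreting parietal cell of the stomach and the tubule cells of the kidney do. Car2 is the fast cytosolic enzyme, and Car3 is a slow cytosolic one that is abundant in muscle and fat. Car4 is anchored to the outer face of the membrane, and Car12 and Car14 span the membrane with the catalytic part outside. Car8 has lost the catalytic activity and binds an inositol trisphosphate receptor. Esrrg encodes ERRγ, a nuclear receptor without a known natural ligand that activates genes of mitochondrial energy metabolism.

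Values are log2 MAS5 signals, so that a difference of 1 is a 2-fold change. They can be ordered across tissues within a probe set, and no level of one probe set is set against another's here. A probe set was tested in a tissue where its mean reached the 40th percentile of that tissue, which lay between log2 signals of 5.24 (liver) and 5.39 (brain). Differences are null minus wild-type, and a call is an adjusted p under 0.05 from limma, with Benjamini-Hochberg adjustment over all probe sets tested. Nothing in the labels ties the 3 arrays of a group to different animals, so a p-value here covers only the spread between arrays, part of which may be technical. Xist, which is transcribed from the inactive X chromosome, was low (6.34 to 7.22) on wild-type replicate 3 and null replicate 1 of every tissue and high (10.68 to 11.38) on the other arrays, so that the arrays of a group differ in this measure of sex. The number of arrays limits the precision.

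Over the 30 arrays, medians lay between log2 signals of 5.80 and 6.08. The 1 probe set of Esrrg read between 5.89 and 6.64 on wild-type arrays and between 6.02 and 6.76 on null arrays, and whether it lies in the deleted stretch was not stated in the sources used here, so that it does not check the genotype labels. A summed level of a marker list is the log2 of its linear signals added on an array, so that its brightest markers weigh most. Defining transcripts of the labelled tissues were present: summed parietal cell markers stood at 12.16 to 12.27 in wild-type stomach, hepatocyte markers at 14.82 to 15.05 in liver and salivary acinar markers at 13.36 to 14.09 in salivary tissue. Several arrays also held transcripts of another tissue, and these are given beside the results they touch: Alb in 2 wild-type stomach arrays, Ucp1 in 4 of 6 salivary arrays, and Acta1 and Bpifa2 in 1 null brain array. Acta1 was also high on the 3 null salivary arrays (7.52 to 8.37, against 1.31 to 4.66 on wild-type ones).

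The first comparison was of wild-type tissues with each other. Each member had its own order of tissues. Of 90 pairs of tissues over the 9 probe sets, 60 were called, beside 47.5% of such pairs over all probe sets tested.

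Car2 was highest in liver and stomach. Its log2 signals were 11.55, 11.73 and 11.86 on the wild-type liver arrays, 11.56, 11.27 and 11.37 in stomach, 10.07, 9.97 and 9.92 in kidney, 7.74, 7.45 and 7.36 in brain and 6.55, 6.89 and 7.15 in salivary tissue. Liver and stomach overlapped and were not distinguished (difference 0.31, 95% confidence interval -0.08 to 0.70, limma adjusted p = 0.171). Every lower step was called, from stomach to kidney, kidney to brain and brain to salivary tissue.

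Car3 had the reverse place for salivary tissue, where it was highest. The brighter probe set, 1449434_at, read 10.82, 10.90 and 11.79 in wild-type salivary tissue, 10.07, 10.50 and 10.73 in liver, 7.44, 7.11 and 7.86 in kidney, 5.28, 5.94 and 6.68 in stomach and 4.90, 5.06 and 5.0 in brain. Salivary tissue and liver were not distinguished by this probe set (limma adjusted p = 0.166), while the second Car3 probe set, 1460256_at, put salivary tissue above liver by 0.84 (limma adjusted p = 0.0131). Both probe sets called the step from liver down to kidney. Over the 30 arrays they had a Pearson r of 0.97 with each other, as a description of arrays that share 5 tissues.

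Of the membrane-bound enzymes, Car4 was highest in kidney, with log2 signals of 8.45, 7.64 and 7.85 for 1418094_s_at and of 6.99, 6.98 and 7.34 for 1448949_at. The next tissue lay lower by 2.73 for the first and by 2.81 for the second (limma adjusted p = 4.24e-07 and 0.00164), and no other neighbouring pair of tissues was called for either. Probe sets with the suffix _s_at hold probes shared by more than 1 transcript, so this one and that of Car14 may read others too. Car12 was highest in salivary tissue (8.76, 8.83 and 8.51) and kidney (8.51, 8.55 and 8.24), which were not distinguished (limma adjusted p = 0.359). Lower values followed in stomach (7.26, 7.50 and 7.19), brain (6.42, 5.86 and 6.06) and liver (4.84, 5.06 and 4.91), with each step called.

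Car14, also a transmembrane enzyme, read 6.37, 6.55 and 6.87 in liver, 6.23, 5.27 and 5.86 in brain and 5.16, 5.83 and 5.94 in kidney, and these neighbours were not distinguished. Stomach and salivary tissue were below the filter, and kidney lay above salivary tissue by 1.88 (limma adjusted p = 0.00316). Car14 and Car12 thus differed in liver, which had the lowest mean of Car12 and the highest of Car14. For Car14, liver was not distinguished from brain or kidney (limma adjusted p = 0.148 and 0.101).

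For Car8, 1427482_a_at had a flatter profile. It was highest in stomach (8.90, 8.70 and 9.05), then in brain (8.37, 7.83 and 8.51) and salivary tissue (7.98, 8.16 and 8.22), with lower values in liver (7.41, 7.14 and 7.09) and kidney (6.81, 6.92 and 6.75). Of its neighbouring pairs, salivary tissue against liver was called (0.91, limma adjusted p = 0.0105). The dimmer probe set, 1424958_at, called no neighbouring pair, and its wild-type means ran from 4.90 in kidney to 5.76 in liver, so the 2 probe sets disagree on the order.

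**Figure D1:**
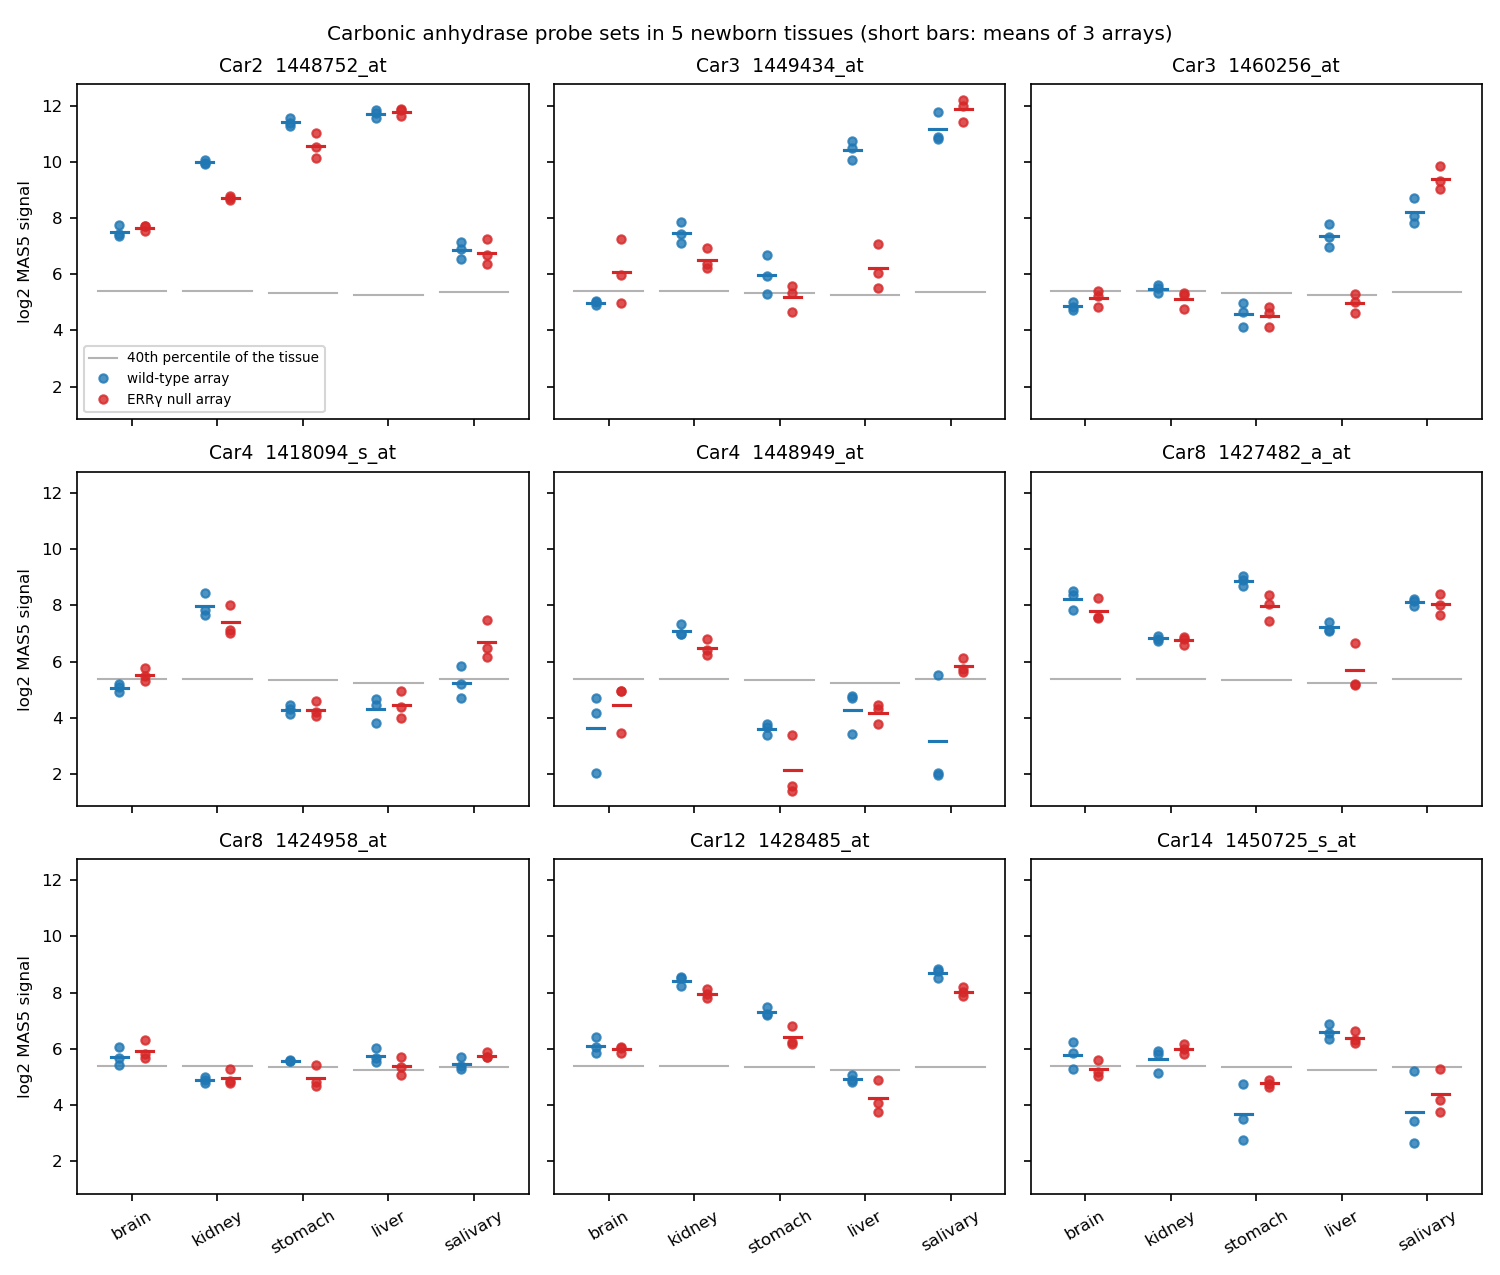
Log2 MAS5 signal (vertical axis) of the 9 carbonic anhydrase probe sets on each of the 30 arrays, by tissue (horizontal axis), with wild-type arrays in blue, ERRγ null arrays in red, short bars for means of 3 arrays and grey lines for the 40th percentile of the tissue, above which probe sets were tested. Car2 leads in liver and stomach, Car3 in salivary tissue and wild-type liver, Car4 in kidney and Car12 in salivary tissue and kidney, and the 3 null liver arrays of Car3 (5.52 to 7.09) lie far below the wild-type ones (10.07 to 10.73).

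Of the other carbonic anhydrase genes, 10 were on the array with 11 probe sets, and 4 of them had high signals in 1 tissue. Car6, the form secreted in saliva, read 12.27 to 12.59 on the 6 salivary arrays and at most 5.78 elsewhere. Car1, the erythrocyte form, read 7.45 to 8.19 in liver and at most 3.24 elsewhere. Car15, a membrane-anchored form, read 7.54 to 8.51 in kidney and at most 5.56 elsewhere, and Car10, a form without catalytic activity, 7.27 to 7.86 in brain and at most 3.71 elsewhere.

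The second comparison was of null with wild-type arrays within each tissue. Of the 45 combinations of 9 probe sets and 5 tissues, 30 passed the filter, and 9 of these were called, 8 lower and 1 higher in the null. Shares of all probe sets called differed by tissue, with 12.2% lower and 11.2% higher in stomach and none in brain. They were 4.72% and 3.5% in salivary tissue, 3.46% and 3.47% in liver and 0.368% and 0.412% in kidney. Car2 was lower in kidney and stomach, Car3 lower in liver and higher in salivary tissue, Car8 lower in stomach and liver, and Car12 lower in stomach and salivary tissue. No probe set of Car4 or Car14 was called in any tissue. Car3 in brain, stomach and, by 1460256_at, liver, Car14 in brain and Car4 1418094_s_at in salivary tissue reached the filter through 1 genotype, so that counts and medians over tested members are a description. In whole tissue, fewer cells of a type and less RNA per cell cannot be told apart.

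**Figure D2:**
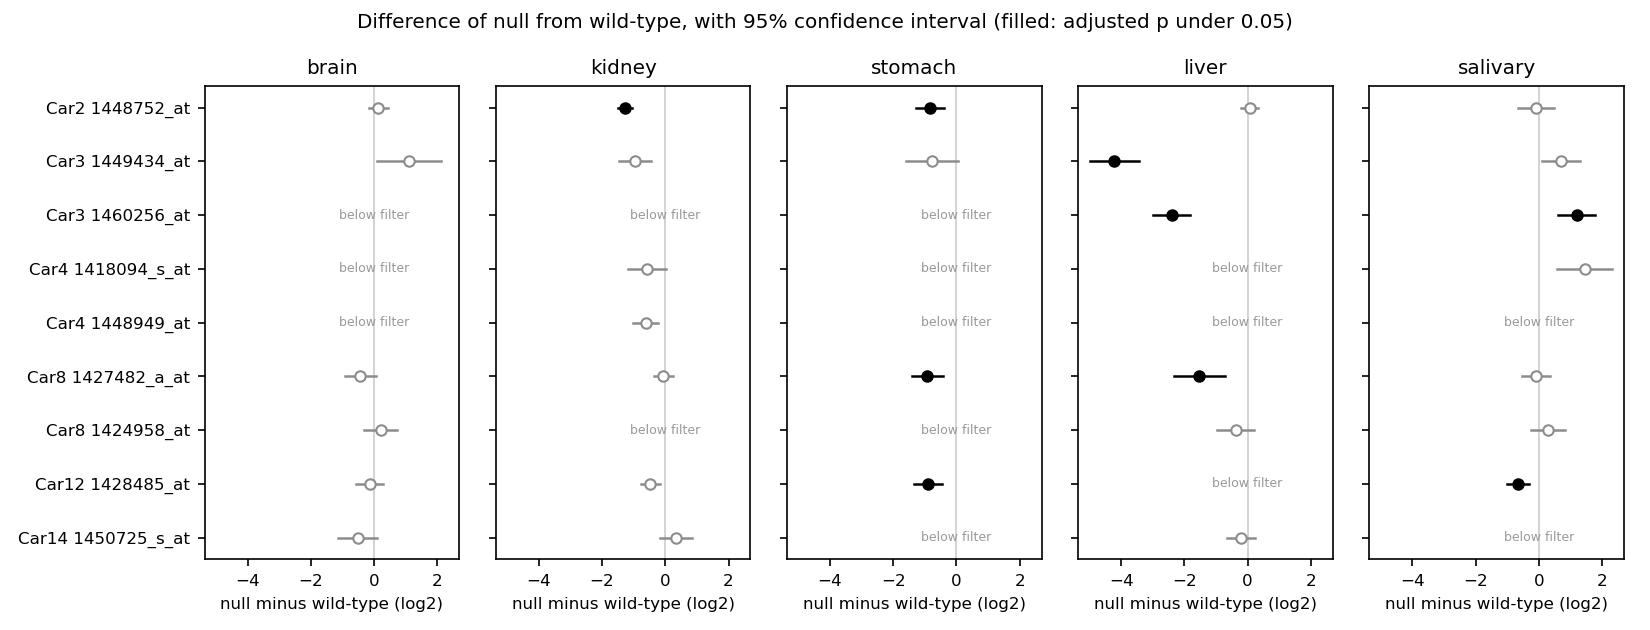
Null minus wild-type difference in log2 signal (horizontal axis) of each carbonic anhydrase probe set (vertical axis) in each tissue, with the 95% confidence interval of the limma fit; filled points have an adjusted p under 0.05, open points do not, and probe sets below the filter of a tissue are marked. The 9 filled points range from Car3 in liver (-4.21) to Car3 in salivary tissue (1.19).

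In kidney, Car2 fell 2.42-fold in the null. It read 10.07, 9.97 and 9.92 on the wild-type arrays and 8.65, 8.70 and 8.78 on the null arrays, a difference of -1.28 ± 0.10 (SE, n = 3 and 3, limma adjusted p = 0.000645). The groups lay apart by more than 1 log2 unit, each with little spread. This was the 1 call among 7 tested members, whose median difference was -0.59 beside 0.01 for all probe sets tested, of which 0.368% were called lower and 0.412% higher.

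Other kidney members were lower without passing the test. Car3 1449434_at read 7.44, 7.11 and 7.86 against 6.24, 6.93 and 6.38 (-0.95, 95% confidence interval -1.45 to -0.46, limma adjusted p = 0.0865). Its groups did not overlap, and without null replicate 2 it passed, at -1.16 (limma adjusted p = 0.0306). That array held the null value nearest to wild-type (6.93), so leaving it out could only widen the difference. Car12 (-0.47) and Car4 1448949_at (-0.62) also had groups that did not overlap, with limma adjusted p = 0.141 and 0.143, and Car4 1418094_s_at stood at -0.59 (limma adjusted p = 0.351). Car8 1427482_a_at (-0.07) and Car14 (0.35) overlapped between the genotypes. The share of all probe sets with groups apart is not given here. At an unadjusted p under 0.05 stood 4 of the 7 members tested and 2013 of all 13577 probe sets tested.

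Car15 went the other way in kidney. It read 7.70, 7.75 and 7.54 on wild-type arrays and 8.46, 8.51 and 8.40 on null arrays, a rise of 0.79 ± 0.11 (SE, n = 3 and 3, limma adjusted p = 0.0181) or 1.73-fold. It was the 1 call among the other carbonic anhydrase genes in any tissue, of 4 tested in salivary tissue and in liver, 3 in brain and in kidney and 1 in stomach. The calls for Car2 and Car15 stood beside a shift in kidney cell markers: all 6 proximal tubule markers had lower means in the null, with 1 of them called. Their summed level was 11.58 to 11.65 in wild-type and 10.65 to 11.18 in null arrays. Of 5 markers of the thick ascending limb 3 had lower and 2 higher means in the null, with 2 of 4 tested called lower. They summed to 11.68 or more in wild-type and to 11.49 to 11.53 in null arrays. For principal cells of the collecting duct, 4 of 5 markers were higher (10.05 to 10.27 against 10.39 to 10.86), and for intercalated cells the sums overlapped (8.23 to 8.31 against 7.95 to 8.33). The part of these shifts in the results was not tested.

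In stomach, 3 of the 4 members tested fell. Car2 read 11.56, 11.27 and 11.37 on wild-type arrays and 10.12, 11.02 and 10.53 on null arrays (-0.84 ± 0.20, SE, n = 3 and 3, limma adjusted p = 0.0185), a 1.79-fold fall. Car8 1427482_a_at read 8.90, 8.70 and 9.05 against 7.45, 8.38 and 8.06 (-0.92 ± 0.22, limma adjusted p = 0.0194). Car12 read 7.26, 7.50 and 7.19 against 6.25, 6.83 and 6.17 (-0.90 ± 0.19, limma adjusted p = 0.0129).

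For all 3 genes every null array lay below every wild-type array, and null replicate 2 was the highest of the null arrays. The share of all probe sets with groups apart is not given here, and 5271 of 13576 had an unadjusted p under 0.05. The 3 calls stood beside a tissue in which 12.2% of all probe sets tested were called lower and 11.2% higher. The median of the 4 tested members was -0.87 beside 0.03 for all. Car3 1449434_at, the fourth, overlapped (-0.77, 95% confidence interval -1.59 to 0.04, limma adjusted p = 0.146). The second Car8 probe set was below the filter, with 5.58, 5.61 and 5.56 against 4.83, 5.42 and 4.67 (-0.61).

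Other measures also differed between the genotypes in stomach. Of the 6 parietal cell markers 5 had lower means in the null, and the summed level was 12.16 to 12.27 in wild-type and 9.18 to 9.42 in null arrays. All 5 surface mucous cell markers had higher means in the null (13.73 to 13.85 against 14.0 to 14.17, 2 called higher), and 6 of 7 skeletal muscle markers lower ones (8.42 to 8.72 against 7.34 to 7.80, both tested markers called lower). Chief cell markers went both ways, with 2 of 3 called lower and 1 higher (12.56 to 12.69 against 12.72 to 12.85). The part of these shifts in the results was not tested. The 3′ minus 5′ gap of the Gapdh control probes, a measure of RNA integrity, was 2.28 to 3.11 in wild-type and 3.53 to 3.97 in null arrays. With that gap as a covariate none of the 3 was called, at -0.50 for Car2, -0.32 for Car8 and -1.35 for Car12 (limma adjusted p = 0.68, 0.809 and 0.311). Since the gap did not overlap between the genotypes, this fit cannot tell gap and genotype apart.

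Alb, the serum albumin of liver, read 5.93, 10.25 and 11.90 on wild-type stomach arrays and 6.19 to 7.06 on null ones. All 4 hepatocyte markers had lower means in the null, with summed levels of 11.32 to 13.62 in wild-type and 10.96 to 11.57 in null arrays. With the wild-type arrays of 10.25 and 11.90 left out, the differences were -1.0 for Car2, -0.94 for Car8 and -0.84 for Car12, so their size was about the same, and none passed with 1 wild-type array left, assumed to vary like the null arrays (limma adjusted p = 0.173, 0.214 and 0.209). Leaving out 1 array also ended the call for Car2 (without wild-type replicate 1 at -0.76, limma adjusted p = 0.0543; without wild-type replicate 3 at -0.86, 0.0516; without null replicate 3 at -0.83, 0.0561) and for Car8 (without wild-type replicate 3 at -0.84, 0.0677). Car12 passed in each of these.

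In liver, Car3 fell by the widest margin of any member. Probe set 1449434_at read 10.07, 10.50 and 10.73 on wild-type arrays and 5.52, 7.09 and 6.05 on null arrays, a difference of -4.21 ± 0.35 (SE, n = 3 and 3, limma adjusted p = 0.00114) or 18.5-fold. Probe set 1460256_at read 6.98, 7.33 and 7.80 against 5.02, 5.30 and 4.61, a difference of -2.39 ± 0.26 (limma adjusted p = 0.00268). The second probe set reached the liver filter of 5.24 through its wild-type arrays, its null mean being 4.98, so no fold is given for it. With no filter its limma adjusted p was 0.0119.

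Car2, the neighbour of Car3 in the genome, did not pass in liver. The genes lie in the order Car13, Car1, Car3 and Car2 in the RefSeq annotation of assembly GRCm38.p6. Car2 read 11.55, 11.73 and 11.86 on wild-type and 11.89, 11.83 and 11.64 on null liver arrays (0.07, 95% confidence interval -0.19 to 0.34, limma adjusted p = 0.776). Car1, on the other side of Car3, stood at 0.24 (95% confidence interval -0.16 to 0.65, limma adjusted p = 0.476).

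Car8 1427482_a_at fell 2.88-fold in liver, from 7.41, 7.14 and 7.09 to 5.22, 6.67 and 5.17 (-1.53 ± 0.36, SE, n = 3 and 3, limma adjusted p = 0.037). Null replicate 2 lay nearer to the wild-type arrays than to the other null arrays. The call was lost with no filter (limma adjusted p = 0.0798), with no mean-variance trend (0.0605), and without wild-type replicate 1 (-1.43, limma adjusted p = 0.124), 2 (-1.56, 0.096) or 3 (-1.59, 0.1) and without null replicate 1 (-1.29, 0.131) or 3 (-1.27, 0.122). The other Car8 probe set was tested and overlapped between genotypes (-0.38, 95% confidence interval -0.95 to 0.19, limma adjusted p = 0.423).

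The 3 liver calls, of 6 members tested and with that of 1460256_at among them, stood beside 3.46% of all probe sets called lower and 3.47% higher, and the members' median was -0.95 beside 0.03 for all. Car14 was not called (-0.20, 95% confidence interval -0.65 to 0.24, limma adjusted p = 0.602). Hepatocyte markers summed to 14.89 to 14.99 in wild-type and 14.82 to 15.05 in null arrays, which overlap, while 4 of 5 erythroid markers had higher means in the null (11.84 to 12.04 against 12.23 to 12.35). The Gapdh gap was 4.25 to 4.81 in wild-type and 3.91 to 4.16 in null arrays. With the gap as a covariate the Car3 differences were -3.80 and -1.69 and Car8 stood at -1.54, none of them called (limma adjusted p = 0.125, 0.148 and 0.329). The gap did not overlap between the genotypes here either, so that the lost calls cannot tell the 2 apart.

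In salivary tissue, Car3 was higher in the null and Car12 lower. Car3 1460256_at read 7.83, 8.09 and 8.70 on wild-type arrays and 9.05, 9.84 and 9.31 on null arrays, a rise of 1.19 ± 0.26 (SE, n = 3 and 3, limma adjusted p = 0.0244) or 2.29-fold. The brighter Car3 probe set overlapped between genotypes, with 10.82, 10.90 and 11.79 against 11.43, 12.21 and 11.98 (0.70, 95% confidence interval 0.09 to 1.31, limma adjusted p = 0.154). Car12 read 8.76, 8.83 and 8.51 against 7.89, 8.20 and 8.02 (-0.66 ± 0.15, limma adjusted p = 0.0309), with no overlap.

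Both Car4 probe sets had higher salivary means in the null without a call. Car4 1418094_s_at read 5.21, 4.69 and 5.86 against 6.17, 7.47 and 6.49 (1.46, 95% confidence interval 0.59 to 2.33, limma adjusted p = 0.0503). Car4 1448949_at was below the filter, with 2.03, 1.98 and 5.51 against 5.63, 6.13 and 5.72. In this tissue 4.72% of all probe sets tested were called lower and 3.5% higher, beside 1 lower and 1 higher of 7 members tested, whose median was 0.30 beside 0.02 for all. Car2 and Car8 1427482_a_at both stood at -0.09, overlapping, with 95% confidence intervals of -0.66 to 0.48 and -0.52 to 0.35.

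Cell type markers also differed between the genotypes in the salivary arrays. Ucp1, the uncoupling protein of brown fat, read 5.99, 4.04 and 12.14 on wild-type and 11.31, 12.75 and 11.02 on null arrays, and Adipoq, the fat hormone adiponectin, 8.36, 8.74 and 10.63 against 10.20, 11.66 and 10.61. Summed levels of 4 adipocyte markers, all with higher means in the null, were 10.52 to 12.69 in wild-type and 12.29 to 13.38 in null arrays. All 3 brown fat markers (6.48 to 12.33 against 11.28 to 13.02) and all 7 skeletal muscle markers (6.62 to 7.23 against 8.79 to 9.76) were higher too, with no call by limma in these 3 lists and 6 of their 7 tested markers at an unadjusted p under 0.05. Of the tissue's own markers, the 4 of ducts summed to 10.55 to 10.96 in wild-type and to 9.66 to 9.999 in null arrays, with 2 means lower and Klk1 called, and all 4 acinar markers had lower means (13.72 to 14.09 against 13.36 to 13.96), with Aqp5 called lower. Of 4 hepatocyte markers 3 were higher (6.39 to 8.40 against 7.51 to 10.89), with none called of 2 tested by limma and 1 at an unadjusted p under 0.05. The part of muscle, duct, acinar and hepatocyte transcripts in the results was not tested.

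On wild-type replicate 3, the array of high Ucp1, the log2 signals of Car3 and Car4 were the highest of the wild-type arrays. Without the 2 wild-type arrays of low Ucp1, Car3 1460256_at stood at 0.70 and Car12 at -0.47, and neither was called (limma adjusted p = 0.487 and 0.544). That fit holds 1 wild-type array, assumed to vary like the null arrays, so that these p-values say nothing of whether the calls depend on Ucp1. With Ucp1 as a covariate they stood at 0.74 and -0.53 (limma adjusted p = 0.217 and 0.261), and with the Gapdh gap Car12 missed at -0.69 (0.0552), as it did with the replicate block (0.0735) and with no mean-variance trend (0.0558). Leaving out wild-type replicate 1, wild-type replicate 2 or null replicate 3 ended the Car3 call, at 1.0, 1.14 and 1.24 (limma adjusted p = 0.0869, 0.105 and 0.0659). The Car12 call ended when wild-type replicate 1, wild-type replicate 2, null replicate 1 or null replicate 3 was dropped, at -0.63, -0.60, -0.59 and -0.66 (limma adjusted p = 0.0964, 0.144, 0.1 and 0.0861). Without wild-type replicate 3, Car3 1449434_at (1.01, limma adjusted p = 0.0267) and Car4 1418094_s_at (1.76, 0.0322) passed as well. That fit drops the highest wild-type value of both. It sets the 2 wild-type arrays of low Ucp1 against null arrays of high Ucp1, so it cannot tell Ucp1 and genotype apart.

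**Figure D3:**
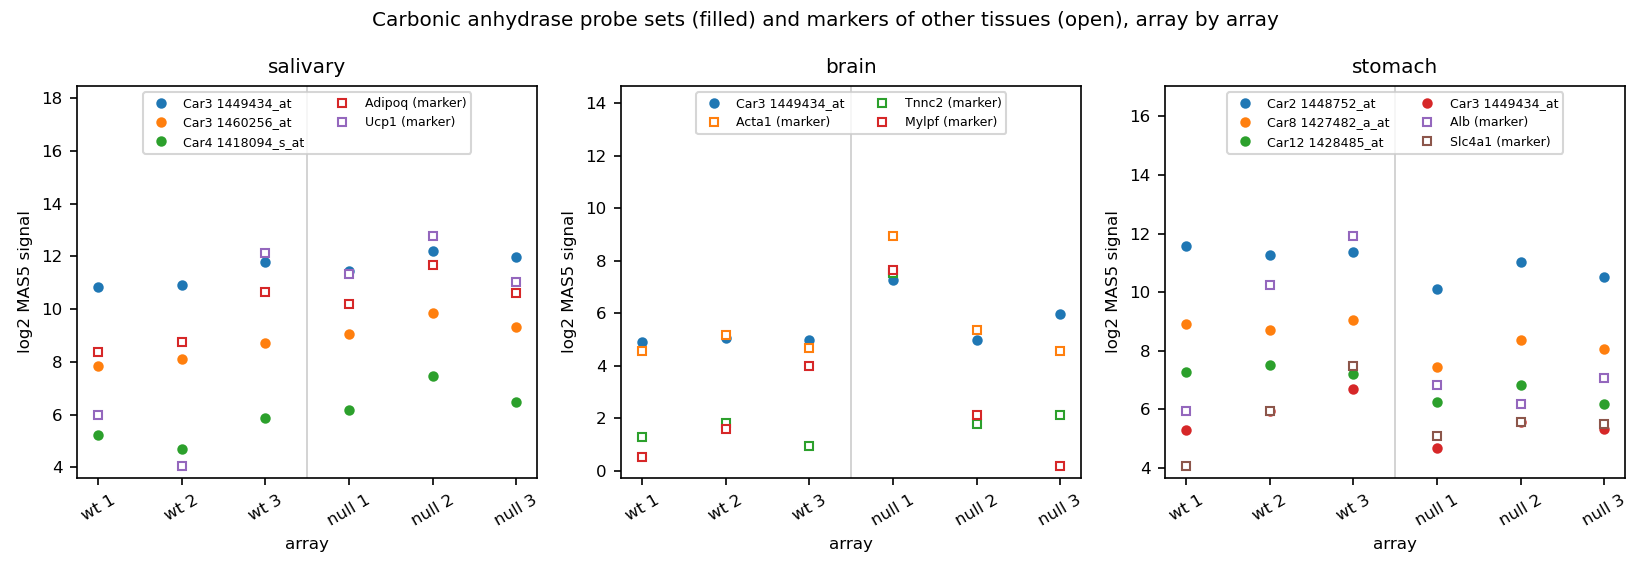
Log2 signal (vertical axis) of carbonic anhydrase probe sets (filled circles) and of markers of other tissues (open squares) on each array (horizontal axis; wt is wild-type, numbers are replicates) of salivary tissue, brain and stomach; levels compare across arrays within a probe set and not between probe sets. Car3 and Car4 are highest in wild-type salivary tissue on replicate 3, where Ucp1 is 12.14, and Car3 in brain is highest on null replicate 1 (7.27), where Acta1 is 8.92.

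In brain, limma called no member of 6 tested, nor any of the 13577 probe sets tested (0% lower and 0% higher), with 1 member and 1426 probe sets at an unadjusted p under 0.05. That member was Car3 1449434_at, which read 4.90, 5.06 and 5.0 on wild-type and 7.27, 4.99 and 5.98 on null arrays (1.09, 95% confidence interval 0.08 to 2.11, limma adjusted p = 0.446). Its value of 7.27 came from null replicate 1, the array on which the muscle genes Acta1 and Tnnc2 read 8.92 and 7.52, against at most 5.38 and 2.12 on the other brain arrays. The salivary gene Bpifa2 read 7.99 on it, against at most 5.28 on the others, and Alb 7.46, against at most 6.21. All 7 muscle markers had higher means in null brain, with summed levels of 6.38 to 6.84 in wild-type and 6.43 to 10.22 in null arrays. Without null replicate 1, Car3 was below the filter of brain and could not be called. Car8, known for its level in cerebellar Purkinje cells, stood at -0.43 (1427482_a_at, 95% confidence interval -0.93 to 0.06) and 0.20 (1424958_at), and 4 Purkinje markers summed to 10.47 to 10.60 against 10.50 to 10.63.

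**Figure D4:**
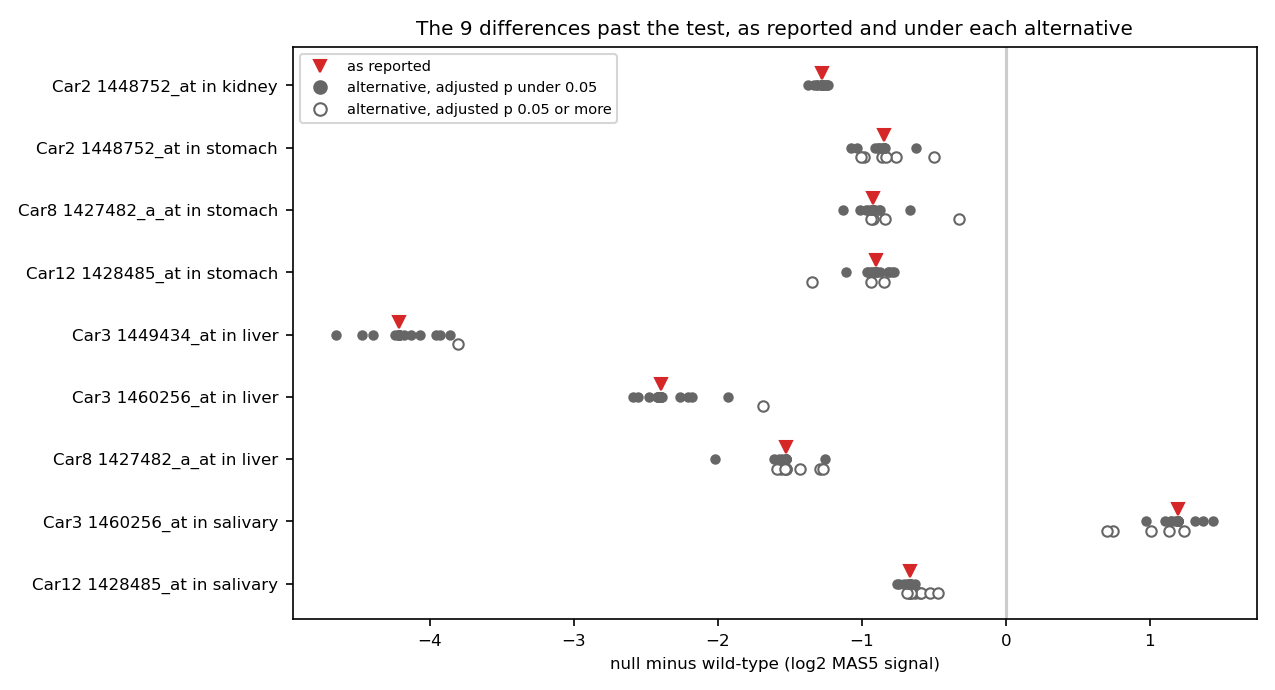
The 9 called differences in log2 signal (horizontal axis; null minus wild-type), as reported (triangles) and under each alternative way of processing the data other than another threshold (circles; filled with an adjusted p under 0.05, open otherwise), by probe set and tissue (vertical axis). Car2 in kidney passed in every alternative shown, between -1.38 and -1.24. Car3 in liver missed in 1 alternative for each probe set, and no called difference changed sign.

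The third comparison asked whether the null difference varied between tissues, with an F test of genotype by tissue over the 30 arrays. It called 6 of the 9 members, beside 15.3% of all 16690 probe sets tested: Car2 (limma adjusted p = 0.00126), both Car3 probe sets (1.88e-05 each), both Car4 probe sets (0.0356 and 0.034) and Car8 1427482_a_at (0.0432). Among pairs of tissues, the Car2 difference in kidney was lower than in brain, liver and salivary tissue, and that in stomach lower than in brain and liver. The Car3 difference in liver was lower than in each of the other 4 tissues by both probe sets, and lower than in salivary tissue by 4.92 for 1449434_at (limma adjusted p = 1.71e-05). Wild-type means of 1460256_at were 4.86 in brain, 5.48 in kidney and 4.59 in stomach, where it did not pass the filter. Those of 1449434_at were 4.99 in brain and 5.97 in stomach, below or near the filter. A fall as large as in liver could not be read from such levels, so these pairs do not show that the effect differs. In salivary tissue the wild-type means were 11.17 for 1449434_at and 8.21 for 1460256_at, so its pair with liver does not have this limit. For Car4, kidney and salivary tissue differed by 2.04 with 1418094_s_at (limma adjusted p = 0.0221).

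The calls for Car4 and Car8 in this F test did not hold without single arrays. Of 30 arrays left out in turn, 9 ended the call of Car4 1418094_s_at (limma adjusted p = 0.0502 to 0.109), 10 that of Car4 1448949_at (0.051 to 0.1) and 20 that of Car8 1427482_a_at (0.0506 to 0.114). The highest of these came without wild-type salivary replicate 2 for both Car4 probe sets and without null liver replicate 1 for Car8. Those of Car2 and Car3 passed with each array left out. With all 5 arrays of high Alb, low Ucp1 or high Acta1 left out, Car2 and Car3 passed and both Car4 probe sets (0.462 and 0.597) and Car8 (0.18) missed by limma, while Car14 was called (0.0167). Car8 also missed with no filter (limma adjusted p = 0.0558), quantile normalization (0.0548), equal array medians (0.0578) and no trend (0.067), Car4 1448949_at with array weights (0.0566), and Car12 was called with a floor at a signal of 32 (0.0254). The Gapdh gap as a covariate ended both Car4 calls (limma adjusted p = 0.0638 and 0.114). The 5 arrays left out together did not include the null salivary arrays, on which Acta1 read 7.52 to 8.37.

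Car12 had no call in the F test (limma adjusted p = 0.332), and its means were lower in the null in all 5 tissues. Means of Car8 1427482_a_at were too, while those of Car8 1424958_at were higher in brain (0.20), kidney (0.08, below the filter) and salivary tissue (0.30). The share of all probe sets lower in all 5 tissues is not given here. The Car12 differences were -0.90 in stomach, -0.69 in liver (below the filter), -0.66 in salivary tissue, -0.47 in kidney and -0.13 in brain. In brain the difference was 0.02 without wild-type replicate 1. Averaged over the tissues the Car12 difference was -0.57 ± 0.10 (SE, 30 arrays, limma adjusted p = 9.79e-05). Averages were also called for Car2 (-0.40, limma adjusted p = 0.00113), Car3 1449434_at (-0.83, 0.00273) and Car8 1427482_a_at (-0.61, 0.00114). The second probe sets of Car3 (1460256_at, -0.26, limma adjusted p = 0.126) and Car8 (1424958_at, -0.08, 0.62) had no call on average. All 4 called averages were lower in the null, beside 11.1% of all probe sets called lower on average and 11.4% higher. Without the 5 arrays named above these 4 passed, and Car14 was called higher (0.65, limma adjusted p = 0.0162), while Car4 1448949_at went from 0.25 to -0.28 with no call (0.607). For Car2, Car3 and Car8 the F test says that tissues differ, so their averages describe no single tissue.

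Sequence was at hand for the stretch before the start of Car12, Car4 and Car14, from RefSeq on GRCm38.p6. That of Car12, which of these 3 has a called average difference, is shown for its 250 bases upstream of the start, at chr9:66713436-66713685 on the plus strand, in lower case with no capitals since no motif was found in it.

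Car12 upstream: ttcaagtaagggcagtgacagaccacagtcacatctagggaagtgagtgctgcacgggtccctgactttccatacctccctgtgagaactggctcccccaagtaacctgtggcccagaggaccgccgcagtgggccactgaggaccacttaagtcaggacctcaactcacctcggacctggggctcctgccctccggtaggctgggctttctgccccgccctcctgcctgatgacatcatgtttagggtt

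ERR receptors bind TCAAGGTCA, whose core is AAGGTCA. Both were searched on both strands, and neither occurs in the 250 bases before Car12, Car4 or Car14. Among 32851 stretches of that length before gene starts, 0.387% hold the first and 4.08% the second. The absence says only that these letters are not in this window.

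The genes that work beside carbonic anhydrases in acid and bicarbonate transport were described from a list of 34, of which 23 were on the array. In stomach 4 of 10 tested fell and 1 rose, beside 12.2% of all probe sets tested called lower and 11.2% higher. The proton pump subunits Atp4a and Atp4b fell by 5.04 and 4.81 (limma adjusted p = 2.31e-07 and 5.87e-07), and the bicarbonate exchanger Slc4a2, which serves parietal cells, fell by 1.45 (0.000771).

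Car2, Car8 and Car12 stood at -0.84, -0.92 and -0.90 in the same arrays. The bicarbonate cotransporter Slc4a4 rose by 0.47 with its brightest probe set (limma adjusted p = 0.0252), and its 2 other probe sets, at 0.27 and 0.12, did not pass. The fourth fall, in the monocarboxylate carrier Slc16a1, was of 0.38 (limma adjusted p = 0.0484). The median of the 10 was -0.32, beside 0.03 for all probe sets tested.

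In kidney limma called none of 14 partner genes tested (3 at an unadjusted p under 0.05), in liver none of 10 (3) and in brain none of 9 (1). Of all probe sets tested, 0.368% were called lower and 0.412% higher in kidney, 3.46% and 3.47% in liver and 0% in brain. At an unadjusted p under 0.05 stood 2013, 3093 and 1426 of the 13577 probe sets of kidney, liver and brain. In salivary tissue 1 of 12 was called, beside 4.72% of all probe sets tested called lower and 3.5% higher. It was the water channel Aqp1, which rose by 1.87 ± 0.29 (SE, n = 3 and 3, limma adjusted p = 0.00631). Like Car3 and Car4, Aqp1 was highest among wild-type salivary arrays on replicate 3, that of high Ucp1 (7.79, against 6.99 and 6.78). Medians of the list were 0.01 in kidney, 0.14 in liver and 0.02 in salivary tissue. No partner gene was thus called beside Car2 in kidney, a tissue with few calls among all probe sets.

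For each member the genes most like its brightest probe set were taken by Pearson r over the 30 arrays, which share 5 tissues and so mainly describe tissue profiles. Car2 was nearest to Cfi (0.956), Ugt2b34 and Iyd, and Car3 to Cldn3 (0.912), Apmap and Hibch. Car4 was nearest to Sostdc1 (0.918), Asb9 and Fxyd2, and Car14 to Ehd3 (0.852), Zdhhc14 and Evi5. Car12 had the closest profiles of the 6, Cdkn1c (0.970), Rcn1 (0.967) and Tmem165 (0.964), and Car8 the least close, Acly (0.833), Ppp2r5c (0.833) and Chl1 (0.799). Between members, r ran from -0.59 for Car8 1427482_a_at with Car14 to 0.64 for Car4 1418094_s_at with Car12.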

How the data were processed

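The authors deposited log2 MAS5 signals of 22690 probe sets on 30 arrays. The tool is named per the submitters' processing notes, while its version and scaling were not stated in the sources used here. Base 2 was taken from the values, since it alone gives arrays nearly equal 2% trimmed means (149.988 to 150.008), so that global scaling is already in the values and levels are relative to each array. After 64 array controls were set aside, 22626 probe sets remained, 20380 with 1 gene symbol in the annotation table, 691 with several and 1555 with none. All columns were matched to a sample by its label.

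Values were used as deposited. Null and wild-type arrays were compared per tissue by limma's lmFit and eBayes, its prior variance following a mean-variance trend (limma 3.58.1, R 4.3.3), on probe sets at or above the 40th percentile of the tissue's means. A fit of 10 group means over 30 arrays gave the average effect, the F test and the pairs of tissues. Adjustment was by Benjamini-Hochberg over all probe sets tested, at 0.05. The steps were tested on simulated data.

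Named were every member probe set, other carbonic anhydrases past the test (Car1, Car6 and Car10, and the salivary markers Klk1 and Aqp5, were added after their values were seen), up to 4 partner genes per tissue by p and the 3 genes of highest r per member. Members and lists were chosen with earlier results of these data known. A list's gene was read by its brightest probe set. Alternatives were a floor at a signal of 32, a pseudocount of 16, other filters, thresholds and normalizations, 1 fit of all arrays, array weights, no trend, Xist as a covariate, the replicate number as a block and each array left out. Covariates and omissions for the Gapdh gap, Alb, Ucp1 and Acta1 were chosen after seeing the data.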

Additional observations from a re-analysis of the deposited data

Results flagged for a closer look

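The null difference varied between tissues for 6 member probe sets, by the limma F test of genotype by tissue over all probe sets: Car2 (adjusted p = 0.00126), Car3 1449434_at (1.88e-05), Car3 1460256_at (1.88e-05), Car4 1418094_s_at (0.0356), Car4 1448949_at (0.034) and Car8 1427482_a_at (0.0432). The difference itself was tested in each case. For Car3 the contrast is between liver, where both probe sets were lower in the null (-4.21 and -2.39), and salivary tissue, where both means were higher (0.70 and 1.19). For Car2 it is between kidney and stomach (-1.28 and -0.84) and the other tissues, where differences lay between -0.09 and 0.13. For Car4 1448949_at, the pair of stomach and salivary tissue that was called (-4.14, adjusted p = 0.00999 by limma) rests on values below the filter of both tissues.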

How the results depend on the processing

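Over the alternatives, 550 of 609 values for single members in single tissues kept direction and side of the threshold, 43 lost a call, 9 gained one and 7 changed sign, none of the 7 among called differences. Those 7 are Car14 in liver with the Gapdh gap as a covariate (0.19) and, with single arrays left out, Car12 in brain (-0.26 to 0.02), Car8 1427482_a_at in kidney (-0.127 to 0.0133) and salivary tissue (-0.27 to 0.095), and Car2 in liver (-0.00833 to 0.147) and salivary tissue (-0.338 to 0.107). Counts of called members were 1 in kidney (2 at a threshold of 0.1; 1 to 2 without single arrays), 3 in stomach (0 at 0.01, and with the Gapdh gap, with Alb or without the arrays of high Alb; 1 to 3 without single arrays), 3 in liver (0 with the gap; 2 to 3 without single arrays; Car8 alone was lost with no filter, without the trend and at 0.01) and 2 in salivary tissue (1 without the trend; 0 at 0.01, with Ucp1 or without the arrays of low Ucp1; 0 to 4 without single arrays). Partner genes called numbered 5 in stomach (3 at 0.01, in 1 fit of all arrays, with Alb and without the arrays of high Alb; 2 with the gap; 3 to 5 without single arrays), 0 in liver (1 at 0.1; 0 to 2), 0 in kidney (0 to 1) and 1 in salivary tissue (2 in 1 fit of all arrays; 0 without the arrays of low Ucp1). The F test called 6 members (3 at 0.01; 3 to 6 without single arrays). Within a tissue, same-numbered wild-type and null arrays share only a number (correlations of -0.24 to 0.14); with the replicate block, called members in salivary tissue were 1, called partner genes in stomach 3, and Car8 missed in the F test (limma adjusted p = 0.0553). In stomach and liver the Gapdh gap did not overlap between the genotypes, so calls lost with it cannot tell gap and genotype apart. Where the construction of an alternative does not show it, the cause was not tested. Arrays of 1 genotype and number may share an animal across tissues, since Xist follows them. Both as a random block (consensus correlation 0.03; chosen after seeing the data) left 6 members called in the F test and 4 on average. Signals below the filter, as for Car4 1448949_at in 4 tissues, limit what can be said.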
